A study of Mus musculus with 2 samples.

Results

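The 39 Hox genes of the mouse were described by cluster and position in hematopoietic stem cells (HSCs), the self-renewing marrow cells at the root of all blood lineages. Members were all gene symbols made of Hox, a cluster letter from a to d and a number, with genes that had no counts included. This rule took 39 of 24421 symbols, of which 11 belonged to cluster a, 10 to cluster b, 9 to cluster c and 9 to cluster d. RNA-seq counts were available from 2 libraries, 1 per group, so none of the differences could be checked against replicates. Donor marrow of both groups came from C57BL/6 mice with Cre-ERT, a transgenic recombinase that tamoxifen switches on. The WT group had the genotype Ezh2 +/+ CreERT+/-, and the other group, labelled Ezh2 KO, had the genotype Ezh2 Δ/Δ CreERT+/-, with both *Ezh2* alleles floxed before deletion. Its single library is called the KO-labelled library. Irradiated recipients received this marrow, tamoxifen was given in 5 daily injections of 100 µl at 10 mg/ml, and CD150+CD48-CD34-Flt3- LSK cells were sorted after 1 month. LSK cells lack lineage markers and carry Sca-1 and c-Kit. The transgene's promoter and the number of mice behind a library are not given in the sources used here.

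Hox genes encode homeodomain transcription factors and sit side by side in 4 clusters. Genes at the same place in different clusters are paralogs and share a number, from 1 at the 3′ side to 13 at the 5′ side. In the embryo they are switched on in the order of their position and give cells along the body axis their identity. Polycomb repressive complex 2, whose main histone methyltransferase is *Ezh2*, places the repressive mark H3K27me3 over the clusters where they are silent. In blood, Hoxa and Hoxb genes are active in stem and early progenitor cells and are turned down as cells mature, and several of them drive leukemia when kept on.

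The clusters lie on different chromosomes (GRCm38, the assembly named mm10). Cluster a lies on the minus strand of chromosome 6. Cluster b spans 173.9 kb at chromosome 11, 96194316 to 96368256, on the plus strand. Cluster c spans 115.8 kb at chromosome 15, 102921103 to 103036852, and cluster d spans 96.8 kb at chromosome 2, 74668310 to 74765142, both on the plus strand. MicroRNA genes lie between the Hox genes and fall into families by their seed, bases 2 to 8, which selects target mRNAs. Mature sequences from RefSeq (GRCm38.p6) of the families miR-196 and miR-10 are shown because their genes are among the counted loci of the clusters, with the seed in capitals.
miR-196a-5p (clusters b and c): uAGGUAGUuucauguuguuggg
miR-196b-5p (cluster a): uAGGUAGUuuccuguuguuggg
miR-10a-5p (cluster b): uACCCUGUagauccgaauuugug
miR-10b-5p (cluster d): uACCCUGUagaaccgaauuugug

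The members of each family share the seed and differ at few of the other bases. The best paired stretch for miR-196a in a GENCODE Hox transcript was in *Hoxb8*, an mRNA that miR-196 is known to cleave. It lies at bases 2208 to 2229 of the transcript, with the bases opposite the seed in capitals.
*Hoxb8* transcript: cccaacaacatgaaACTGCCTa
Of the 22 bases of miR-196a-5p, 21 formed Watson-Crick pairs there and 1 formed a wobble pair, while miR-196b-5p paired at 21 of 22 bases. Such pairing describes the letters and does not show that a microRNA was present, since these libraries did not measure mature microRNAs.

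Gene counts totalled 5763118 in WT and 4157280 in the KO-labelled library. A floor of 3 counts was taken as the highest level that a count of 0 allows. It was 0.521 CPM (counts scaled to the library's total of gene counts) in WT and 0.722 CPM in the KO-labelled library. Where values are given in pairs, WT comes first. Log2 ratios set the KO-labelled library over WT and were formed from normalised counts, scaled by a size factor per library, after adding 1. Intervals come from the counts themselves, and folds are given without the added 1, so that a fold at few counts is larger than its log2 ratio. *Ezh2* had 166 and 129 counts, a log2 ratio of 0.08 (95% interval -0.27 to 0.42), so the targeted gene was not lower at the level of whole-gene counts, which cannot reveal the loss of a single exon. For this reason the library is referred to only by its label. The donors also differed in sex-linked transcripts, with 801 counts of *Xist* in WT against 4, and 0 of *Ddx3y* in WT against 275. Markers of the sorted cell were at similar levels, with 0 of 9 HSC genes (*Hoxb5* among them) past 2-fold and a summed level of 3850 CPM in WT and 4130 CPM in the KO-labelled library. Among all genes with a mean of at least 1 CPM, 4.91% were higher and 3.9% lower past 2-fold. Markers of several other blood cells were higher in sum in the KO-labelled library. Their summed levels were 1770 and 3460 CPM for 8 granulocyte genes (4 past 2-fold higher), 0 and 769 CPM for 4 eosinophil genes (4 of 4 higher, all at 0 in WT), 97.5 and 217 CPM for 5 erythroid genes (4 higher), and 4.86 and 39.2 CPM for 5 B lymphoid genes (4 higher). The sums were 185 and 236 CPM for the 3 genes selected against in the sort, 10.8 and 9.38 CPM for 4 T lymphoid genes (1 higher), 113 and 143 CPM for 9 stroma genes (2 higher, with *Prrx1* and *Pdgfra* at 0 in both) and 51.5 and 56.3 CPM for 3 endothelial genes (0 past 2-fold, with *Cdh5* at 0 in both). Not every listed gene went with its sum. Granulocyte *Elane* (860 and 374 counts, log2 ratio -0.76) and erythroid *Hemgn* (280 and 141 counts, -0.55) were lower, and granulocyte *Ctsg* differed little (-0.01). Among the 3 genes selected against in the sort, *Cd34* held most of the sum (166 and 199 CPM, log2 ratio 0.23). *Flt3* was higher in the KO-labelled library, with 98 and 140 counts and a log2 ratio of 0.95 (0.57 to 1.34). *Cd48* had 12 and 11 counts (0.29). In a bulk library, fewer cells of a type and less RNA per cell cannot be told apart. The part of the other cell types and of the donors' sex in the Hox differences was not tested.

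Hox RNA was a small part of each library and came almost wholly from clusters a and b. Hox genes took 2090 counts in WT, 0.0363% of gene counts, and 1409 counts in the KO-labelled library, 0.0339%. Cluster a held 1415 counts in WT, 67.7% of Hox counts (95% Clopper-Pearson interval 65.7% to 69.7%), and 1040 counts in the KO-labelled library, 73.8% (71.4% to 76.1%). Cluster b held 668 counts, 32.0% (30.0% to 34.0%), and 353 counts, 25.1% (22.8% to 27.4%). Cluster c held 7 and 16 counts. Cluster d, known for its role in limbs and digits, had 0 counts for all 9 of its genes in both libraries, which allows up to 0.521 CPM in WT and 0.722 CPM in the KO-labelled library. The shares of clusters a and b differed between the libraries beyond counting error. All intervals and floors here hold counting error alone and treat each read as independent. Amplified reads that carry no molecular identifiers may be copies of 1 molecule, so the intervals may be too narrow even for counting error.

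**Figure D1:**
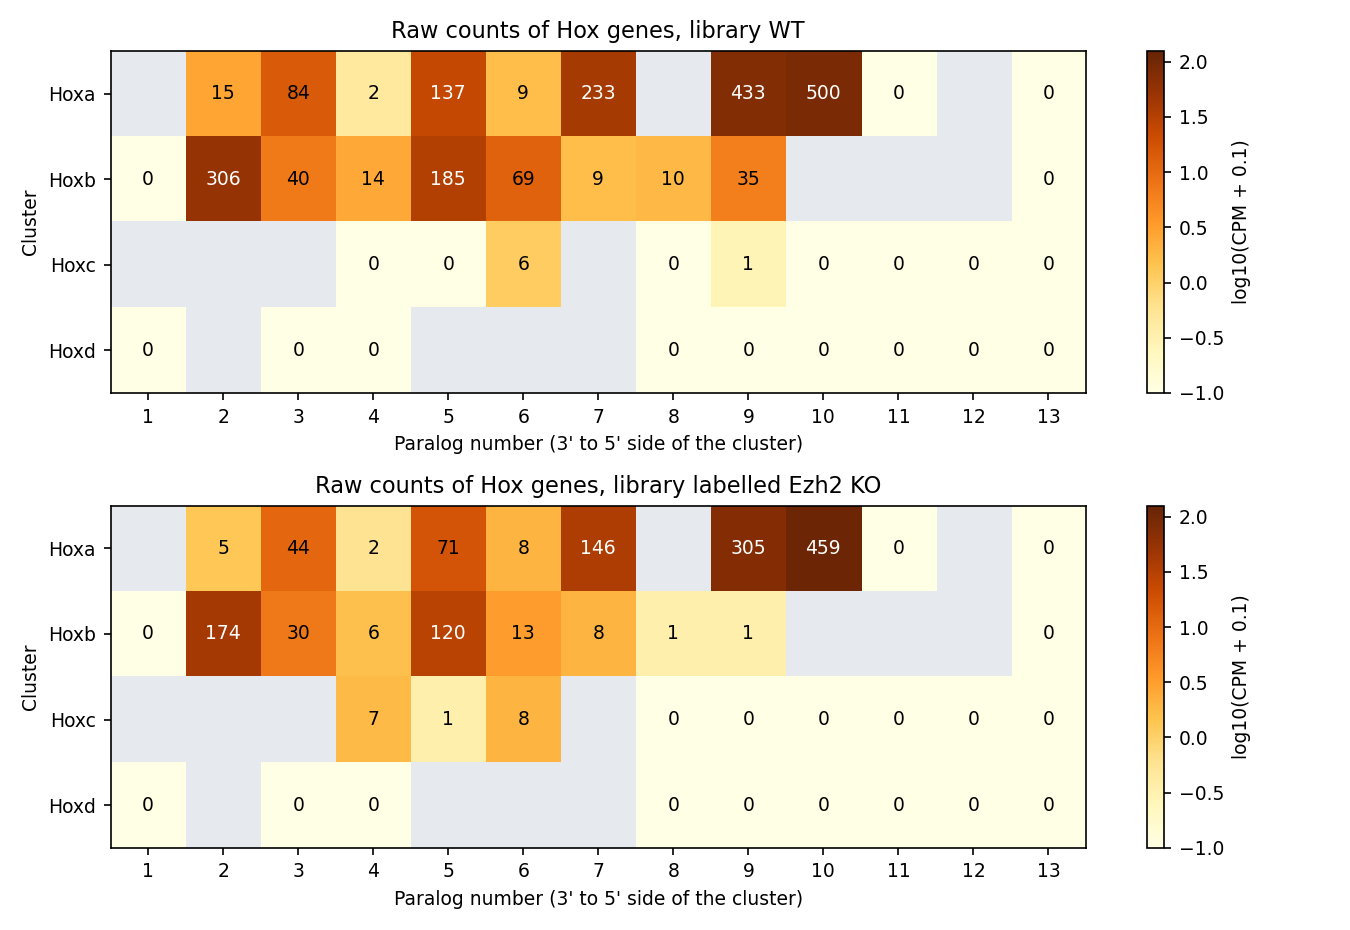
Raw counts of the Hox genes in WT (top) and in the KO-labelled library (bottom), with clusters in rows and paralog numbers in columns. Shading is log10 of CPM + 0.1, and grey fields mark positions without a gene or not shown. Paralogs 11 to 13 and the whole of cluster d stand at 0 in both libraries.

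Members toward the 5′ ends of the clusters were silent, that is, without counts. More than 3 counts were recorded for 16 members in WT and 15 in the KO-labelled library, 14 of them in both. *Hoxb8* and *Hoxb9* passed this floor only in WT, and *Hoxc4* only in the KO-labelled library. The share of all genes that passed in only 1 library is not given here, and WT had more gene counts. Passing in only 1 library is thus not shown to be particular to Hox genes. Of the 22 members that did not pass the floor in either library, 18 had 0 counts in both. A count in at least 1 library was found for 21 of the 39 members and for 14855 of all 24421 symbols. Having no count was thus common among all genes too. By cluster, 7 of 11 genes of cluster a, 8 of 10 of cluster b, 2 of 9 of cluster c and 0 of 9 of cluster d passed the floor in at least 1 library. The 9 paralogs numbered 11 to 13, which pattern the hindmost trunk and the limbs in the embryo, had no count in either library. The 5′ genes of cluster a, *Hoxa11* and *Hoxa13*, were among them, although their neighbor *Hoxa10* was among the most abundant members. Members under the floor that did have a count included *Hoxa4* (2 and 2 counts in WT and the KO-labelled library), *Hoxc5* (0 and 1) and *Hoxc9* (1 and 0).

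To compare genes with each other, CPM were divided by the summed length of a gene's exons in kb (RPKM). With this length, the order in WT began with *Hoxb2*, a hindbrain patterning gene, at 32.6 RPKM (95% Poisson interval 29.1 to 36.5). *Hoxa10* followed at 27.6 RPKM (25.2 to 30.1), then *Hoxa9* at 23.3 RPKM (21.1 to 25.6). *Hoxb5*, a known marker of long-term HSCs, stood at 16.9 RPKM, *Hoxa7* at 14.4 RPKM and *Hoxa5* at 12.7 RPKM. In the KO-labelled library the order began with *Hoxa10* at 35.1 RPKM (32.0 to 38.5), which lay above *Hoxb2* at 25.7 RPKM (22.0 to 29.8) beyond counting error. *Hoxa9* had 22.7 RPKM, *Hoxb5* 15.2 RPKM, *Hoxa7* 12.6 RPKM and *Hoxa5* 9.10 RPKM. The same 6 genes thus led both libraries. Their order depended on the length used. Per kb of the longest coding sequence, *Hoxa9* led in both libraries (92.4 and 90.2), followed by *Hoxa10* (69.5 and 88.5), *Hoxa7* (58.9 and 51.1), *Hoxb2* and then *Hoxb5* (39.8 and 35.8). With exon lengths, 12 of 15 pairs of neighbors in the order of WT had overlapping intervals, and in the KO-labelled library 11 of 14 did. The breaks in WT lay below *Hoxa9*, below *Hoxa5* and below *Hoxa3*, and those in the KO-labelled library below *Hoxa10*, below *Hoxa9* and below *Hoxa5*. *Hoxa9* and *Hoxa10* together held 44.6% of Hox counts in WT and 54.2% in the KO-labelled library.

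**Figure D2:**
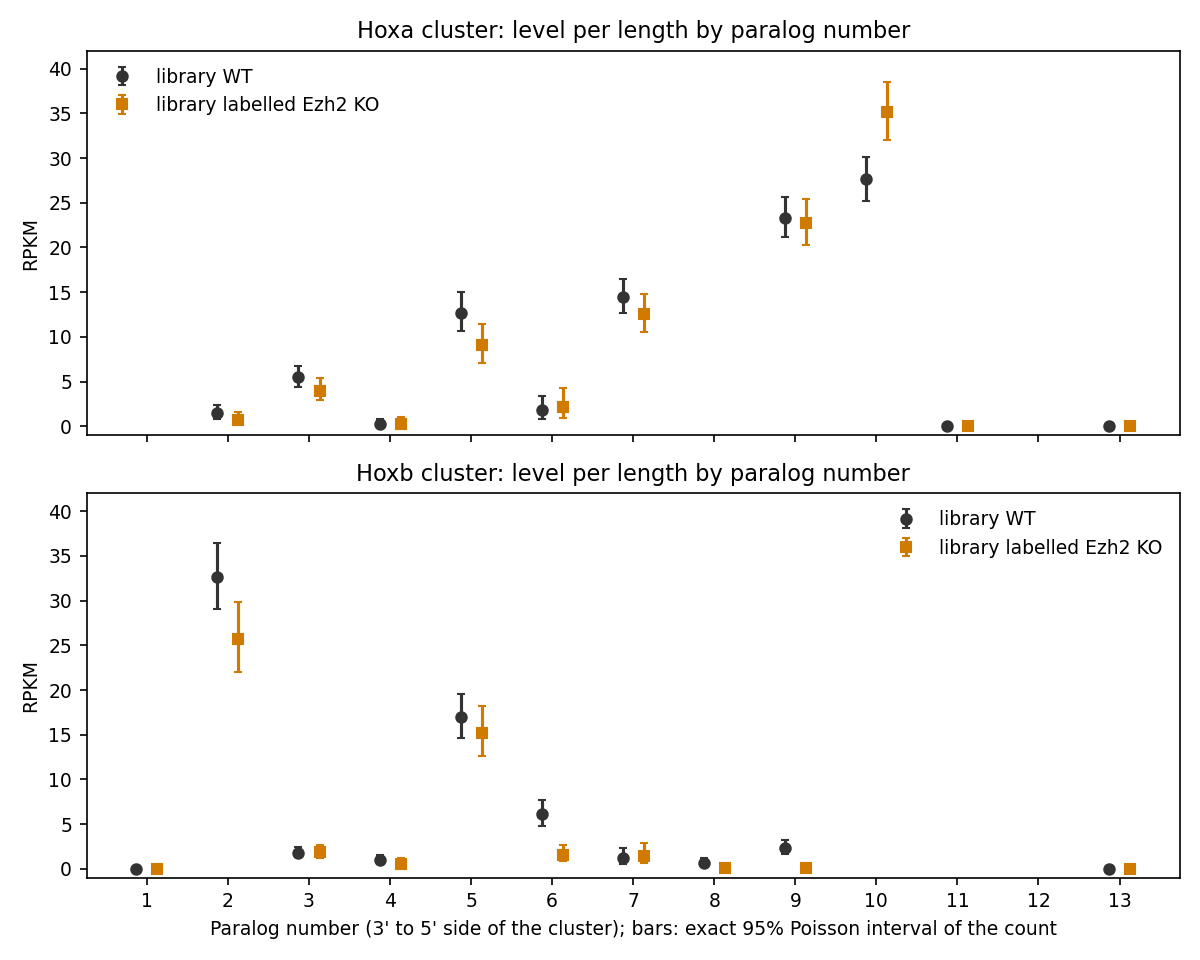
Level per length (RPKM) of the genes shown of clusters a and b by paralog number, from the 3′ to the 5′ side, in WT (circles) and in the KO-labelled library (squares). Bars are exact 95% Poisson intervals of the count. Levels in cluster a are highest at Hoxa9 and Hoxa10, whereas those in cluster b are highest at Hoxb2 and Hoxb5, and levels are uneven along both clusters.

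Levels did not change evenly along a cluster. In cluster a, *Hoxa4* (2 counts in each library) lay between *Hoxa3* with 84 and 44 counts and *Hoxa5* with 137 and 71 counts, in WT and the KO-labelled library. *Hoxa6*, with 9 and 8 counts, lay between *Hoxa5* and *Hoxa7*. In cluster b, *Hoxb3* at 1.78 RPKM and *Hoxb4* at 0.947 RPKM in WT lay between the abundant *Hoxb2* and *Hoxb5*. *Hoxb4*, known for expanding HSCs when forced on, was thus among the lowest of the members above the floor, with 14 and 6 counts.

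The comparison of the 2 libraries asked which Hox genes were higher or lower in the KO-labelled library, since the labels give genes raised without *Ezh2* as its purpose. *Hoxb6* and *Hoxb9* were lower past 2-fold with intervals below 0. *Hoxa5* and *Hoxb2* also had intervals below 0 but lay within 2-fold. Of 39 members, 15 had a mean of at least 1 CPM, and of these 0 were higher past 2-fold, against 4.91% of all 12588 genes at that level. With 15 members, 0 is not far from that share. *Hoxc4*, which had counts only in the KO-labelled library, lay under that level. Among the same 15, 3 were lower past 2-fold (*Hoxa2*, *Hoxb6* and *Hoxb9*), against 3.9% of all genes. For *Hoxb6* and *Hoxb9*, 2 of 15 members, the interval also lay below 0, against 3.27% of all genes. The median log2 ratio of the 15 members was -0.23, beside 0.00 over all genes tested, with 10 members below 0 and 5 above, where 50.4% of all genes lay below 0. Large ratios were more frequent at low counts, so members were also set against genes of their own level. Of 8 members with a mean from 1 to 10 CPM, 3 were lower past 2-fold, against 12.9% of genes in that range. Of 7 members with a mean of at least 10 CPM, 0 were, against 1.19%. The split by level was chosen after the data were seen.

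**Figure D3:**
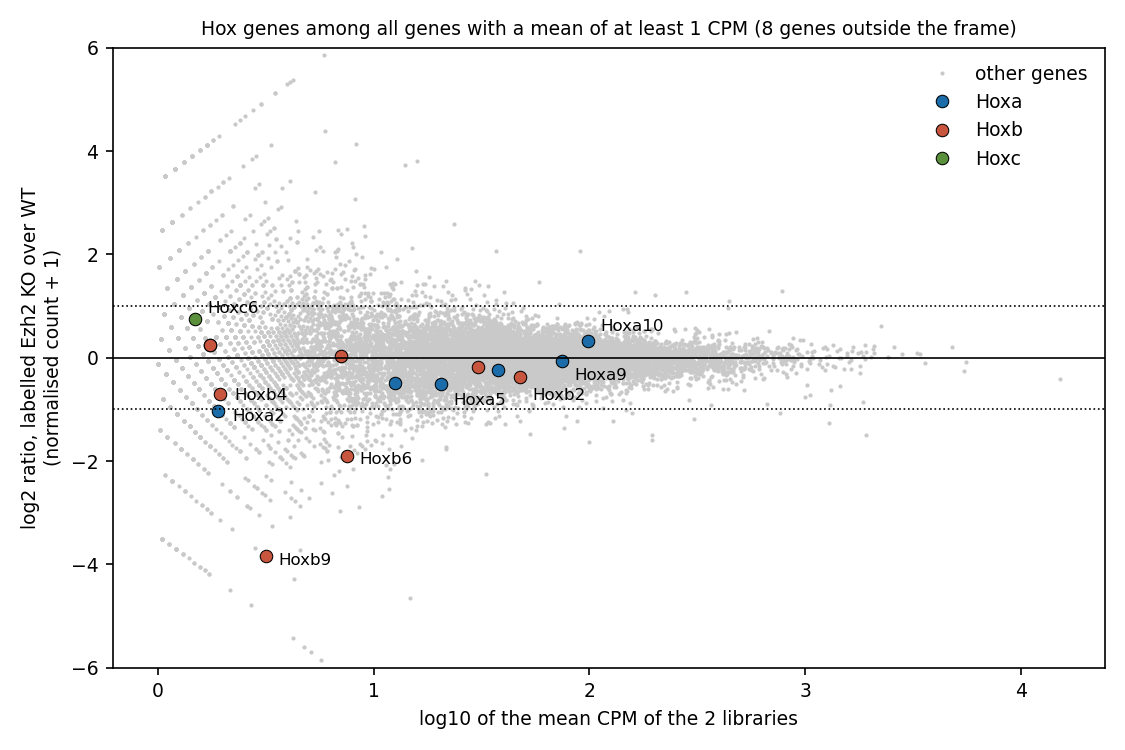
Log2 ratio of the KO-labelled library over WT against log10 of the mean CPM for 12588 genes (grey), with the 15 Hox members at this level in color by cluster. Hoxb6 and Hoxb9 lie below the lower dotted line (2-fold) and Hoxa2 on it, while the points of Hoxa6 and Hoxb7 coincide and 8 genes lie outside the frame.

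*Hoxb6*, which expands HSCs and myeloid precursors when forced on, had 69 counts in WT and 13 in the KO-labelled library (chromosome 11, 96292476 to 96301569). Its level was 59.2 normalised counts in WT against 15.2, a log2 ratio of -1.90 (95% interval -2.95 to -1.10). That is 3.91-fold higher in WT, with an interval of 2.14 to 7.71. It stood 7 in the RPKM order of WT and 10 in that of the KO-labelled library.

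*Hoxb9*, a gene of thoracic skeletal patterning, had 35 counts in WT and 1 in the KO-labelled library (chromosome 11, 96271457 to 96276595). The levels of 30.0 and 1.17 normalised counts gave a log2 ratio of -3.84 (-10.03 to -2.12), or 25.8-fold with a counting interval of 4.33 to 1047. The size of this difference is poorly bounded because it rests on a single count.

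*Hoxb8*, which holds myeloid progenitors undifferentiated when forced on, had 10 counts in WT and 1 in the KO-labelled library (chromosome 11, 96281905 to 96285315). Its mean of 0.988 CPM lay just under the level used for calls. The log2 ratio was -2.15 (-8.32 to -0.07), a 7.36-fold difference with an interval of 1.05 to 320. *Hoxb7* lies between *Hoxb8* and *Hoxb6* and had 9 and 8 counts, with a log2 ratio of 0.24 (-1.30 to 1.82). This interval does not leave out a 2-fold difference of *Hoxb7* in either direction. *Hoxb13*, the 5′ end of the cluster, had no count.

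As a group chosen after their values were seen, the 5 genes from *Hoxb6* to *Hoxb13* held 123 counts in WT and 23 in the KO-labelled library, a log2 ratio of -1.94 (-2.69 to -1.33). The 5 genes from *Hoxb1* to *Hoxb5* held 545 and 330 counts, a log2 ratio of -0.28 (-0.48 to -0.08). The 5′ genes took 18.4% of cluster b counts in WT (15.5% to 21.6%) and 6.52% in the KO-labelled library (4.17% to 9.62%). Since low values of *Hoxb6*, *Hoxb8* and *Hoxb9* prompted this division, the shares describe those genes again and are no separate evidence. Cluster b as a whole had a log2 ratio of -0.48 (-0.67 to -0.29), and -0.29 (-0.49 to -0.10) without *Hoxb6* and *Hoxb9*. Summed markers were higher where these Hoxb genes were lower: granulocyte 1770 and 3460 CPM, eosinophil 0 and 769 CPM, erythroid 97.5 and 217 CPM. Among the listed markers, *Elane* and *Hemgn* were themselves lower. The part of these other cell types in the Hoxb difference was not tested.

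The 3′ genes of cluster b lay closer to no difference. *Hoxb2* had 306 and 174 counts, or 263 and 203 normalised counts, a log2 ratio of -0.37 (-0.65 to -0.10) that lay below 0 but within 2-fold. *Hoxb5* had 185 and 120 counts, with a log2 ratio of -0.18 (-0.53 to 0.16). *Hoxb3*, which disturbs lymphoid and myeloid development when forced on, had 40 and 30 counts, with a log2 ratio of 0.03 (-0.71 to 0.75). *Hoxb4* had a log2 ratio of -0.70 (-2.45 to 0.69). The intervals of *Hoxb3*, *Hoxb4* and *Hoxb5* spanned 0. *Hoxb1*, the 3′ end of the cluster, had no count.

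**Figure D4:**
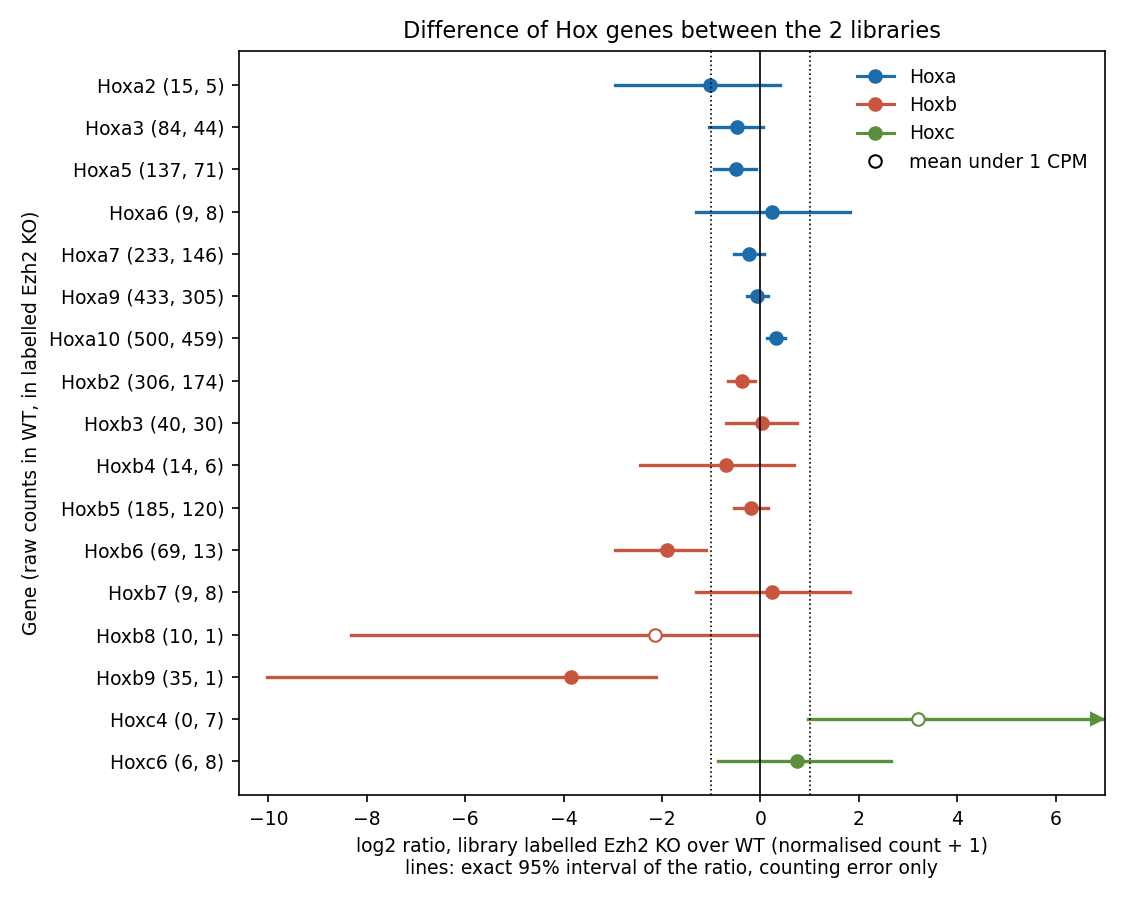
Log2 ratio of the KO-labelled library over WT for the 17 members above 3 counts in at least 1 library, in cluster order, with exact 95% counting intervals. Dotted lines mark 2-fold, open points have a mean under 1 CPM, and the arrow marks an interval with no upper end. Hoxb6 and Hoxb9 have intervals wholly beyond the lower dotted line, and most other intervals in clusters a and b reach 0 or lie near it.

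Cluster a kept its summed level, with 1415 and 1040 counts and a log2 ratio of 0.00 (-0.12 to 0.11), but its genes did not all keep theirs. *Hoxa10*, which promotes HSC and progenitor expansion, had 500 and 459 counts, or 429 and 535 normalised counts, a log2 ratio of 0.32 (0.13 to 0.50). It was the only member of the 15 with an interval above 0, where 19.2% of all genes tested had one. *Hoxa9*, needed for full HSC function and a main target of leukemic MLL fusions, had 433 and 305 counts, or 372 and 355 normalised counts, a log2 ratio of -0.06 (-0.28 to 0.15). *Hoxa7*, which MLL fusions also keep on, had 233 and 146 counts, with a log2 ratio of -0.23 (-0.54 to 0.07). *Hoxa6* had 9 and 8 counts, with a log2 ratio of 0.24. The interval of *Hoxa9* leaves out a difference of 1.5-fold in either direction, as far as counting error goes.

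The genes from *Hoxa6* to *Hoxa13* together had 1175 and 918 counts and a log2 ratio of 0.09 (-0.04 to 0.21). *Hoxa2*, *Hoxa3* and *Hoxa5*, on the 3′ side, each had a log2 ratio below 0. *Hoxa5*, which patterns the lung and the neck skeleton, had 137 and 71 counts, or 118 and 82.7 normalised counts, a log2 ratio of -0.50 (-0.94 to -0.08). *Hoxa3*, which patterns the thymus and parathyroid, had 84 and 44 counts, with a log2 ratio of -0.48 (-1.05 to 0.05). *Hoxa2*, a hindbrain and branchial arch gene, had 15 and 5 counts, with a log2 ratio of -1.02 (-2.96 to 0.39). Its place past 2-fold was lost when libraries were scaled by total counts or when 5 was added to counts in place of 1. Of the 15 members, 4 had intervals below 0 (*Hoxa5*, *Hoxb2*, *Hoxb6* and *Hoxb9*), beside 20.8% of all genes tested, a share near that background.

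Cluster c was near the floor in both libraries, yet its sum of 7 and 16 counts gave a log2 ratio of 1.49 (0.27 to 3.16). *Hoxc4*, a gene also known from lymphoid cells, had 0 counts in WT and 7 in the KO-labelled library, at least 3.17-fold higher against a floor of 3 counts in WT when counting error in the 7 counts is left aside. With that error, the exact 95% interval of the log2 ratio began at 0.97. Its mean of 0.842 CPM was under the level used for calls. *Hoxc6* had 6 and 8 counts, with a log2 ratio of 0.75 (-0.86 to 2.66). B lymphoid markers were also higher in the KO-labelled library (4.86 and 39.2 CPM), and their part in the *Hoxc4* counts was not tested. Summed over paralogs of different clusters, the log2 ratio was 0.32 for group 10, which had counts only for *Hoxa10*, and -1.07 (-1.76 to -0.47) for group 6, led in WT by *Hoxb6*.

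Promoter windows, the 250 bases before a RefSeq start (GRCm38.p6), were found for 22 of the 39 genes, in 24 windows. They were examined because Polycomb acts at CpG-rich promoters and both silent and active members were at hand. Hox windows held a median of 12.5 CpG (2 to 35), against 6 over all 32851 windows with quartiles of 2 and 16, and 9 of the 24 lay above the upper quartile. Windows of genes above the floor had a median of 12 CpG (3 to 28, 11 windows), and those of genes at the floor a median of 13 (2 to 35, 13 windows). CpG number thus did not separate active from silent members in these windows. The windows cover the members unevenly. No window was found for 7 genes above the floor, *Hoxb2*, *Hoxb5*, *Hoxb6* and *Hoxb9* among them, and most windows of genes at the floor belong to cluster d. A window each of an abundant gene (*Hoxa5*), a gene with fewer counts in the KO-labelled library (*Hoxb8*) and a silent gene (*Hoxa13*) are shown with every CpG in capitals.
*Hoxa5*, chr6:52204588-52204837, minus strand, 28 CpG: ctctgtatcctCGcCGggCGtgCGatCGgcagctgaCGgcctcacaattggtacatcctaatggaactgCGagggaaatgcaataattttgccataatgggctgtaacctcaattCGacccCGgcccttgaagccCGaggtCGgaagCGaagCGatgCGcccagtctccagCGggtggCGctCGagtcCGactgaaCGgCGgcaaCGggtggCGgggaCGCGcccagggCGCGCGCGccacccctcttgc
*Hoxb8*, chr11:96281655-96281904, plus strand, 12 CpG: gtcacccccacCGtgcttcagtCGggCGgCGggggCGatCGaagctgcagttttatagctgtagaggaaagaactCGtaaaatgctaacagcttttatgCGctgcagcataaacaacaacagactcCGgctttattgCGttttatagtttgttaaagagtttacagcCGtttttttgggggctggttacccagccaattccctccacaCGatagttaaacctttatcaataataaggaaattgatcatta
*Hoxa13*, chr6:52260881-52261130, minus strand, 35 CpG: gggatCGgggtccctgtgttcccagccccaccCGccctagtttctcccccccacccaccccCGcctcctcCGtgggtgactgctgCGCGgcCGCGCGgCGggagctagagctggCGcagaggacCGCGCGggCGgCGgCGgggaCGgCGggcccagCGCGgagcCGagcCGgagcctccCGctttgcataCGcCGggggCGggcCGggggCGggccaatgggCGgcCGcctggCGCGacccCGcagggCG
The silent *Hoxa13* had the most CpG of all Hox windows. The motif TGATTNAT, known for Hox and Pbx pairs, was found on either strand in the windows of *Hoxa2* and *Hoxd11* and in 2.8% of all windows. The Meis motif TGACAG was found in those of *Hoxa2* and *Hoxa3* and in 15.9% of all windows. Both motifs begin with TGA and then differ, so a match of one is not a match of the other.

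Hox proteins bind DNA together with the homeodomain partners Pbx and Meis. Of the 9 partner genes listed, 7 were tested, with 0 past 2-fold in either direction and a median log2 ratio of 0.26. The shares of all genes tested were 4.91% higher and 3.9% lower past 2-fold, so 0 of 7 does not set the partners apart. *Meis1*, the partner of *Hoxa9* in leukemia, was abundant with 3212 and 2230 counts and a log2 ratio of -0.08 (-0.16 to -0.01). *Pknox1* had 288 and 250 counts, with a log2 ratio of 0.24 (-0.01 to 0.49). *Pbx4* had 53 and 78 counts, the largest log2 ratio of the list at 0.98 (0.48 to 1.53), and was chosen for mention after its value was seen.

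Tested regulators of the clusters, such as the MLL methyltransferase complex that keeps Hox genes on, stayed within 2-fold. Of 20 listed genes, 17 were tested, 0 passed 2-fold, and the median log2 ratio was -0.06. Over all genes tested, 4.91% were higher and 3.9% lower past 2-fold, so 0 of 17 does not set these genes apart. The 3 most abundant were *Mllt3* with 1893 and 1410 counts (log2 ratio 0.02), *Men1*, which encodes the MLL cofactor menin, with 1078 and 761 counts (-0.06), and *Psip1*, which tethers menin to chromatin, with 1012 and 740 counts (-0.01). Chosen after their values were seen, *Rbbp5*, a core subunit of MLL complexes, had 476 and 218 counts and a log2 ratio of -0.68 (-0.92 to -0.45), and *Dot1l*, the H3K79 methyltransferase, had 118 and 56 counts and a log2 ratio of -0.63 (-1.12 to -0.16). Both intervals lay below 0 and both ratios within 2-fold. The embryonic Hox activators *Cdx1*, *Cdx2* and *Cdx4* had 0 counts in both libraries.

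Non-coding genes of the clusters were scarce. Of 22 listed, 16 were in the data and 4 reached a mean of 1 CPM, with 0 past 2-fold. Of all genes tested, 4.91% were higher and 3.9% lower past 2-fold. *Hoxb5os*, antisense to *Hoxb5*, had 24 and 20 counts, *Hotairm1*, in cluster a, had 15 and 11, *Hoxaas3* had 11 and 12, and *Hoxaas2* had 10 and 8. *Hotair* in cluster c and *Hottip* at the 5′ end of cluster a had 0 counts in both. Among the microRNA genes shown above, *Mir10a*, *Mir10b*, *Mir196a-1* and *Mir196a-2* had 0 counts, and *Mir196b* had 4 and 2, but it lies inside the annotated extent of *Hoxa9*. Exons of *Hoxa3*, *Hoxa7* and *Hoxb5* overlap counted antisense genes over 21.8%, 20.7% and 5.3% of their bases. The strand setting of the counting is not given in the sources used here, so reads there cannot be told apart. *Hoxb2* and *Hoxb3* overlap a further antisense gene, *Hoxb3os*, over 58.5% and 57.8% of their exon bases, more than the genes above. *Hoxb3os* has no entry of its own in the counts analysed here, and its share of the reads of *Hoxb2* and *Hoxb3* was not tested.

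Genes that flank the clusters mostly did not differ past 2-fold. Of 21 listed, 14 were tested, 0 were higher past 2-fold (4.91% of all genes tested) and 1 was lower (3.9%). Their median log2 ratio was 0.00. The gene that was lower was *Skap1*, which encodes an adaptor of T cell receptor signaling, with 49 and 13 counts and a log2 ratio of -1.42 (-2.48 to -0.57). *Skap1* lies at chromosome 11, 96464593 to 96759130, beyond the 3′ end of cluster b and so on the other side of it from *Hoxb9*. T lymphoid markers summed to 10.8 and 9.38 CPM. The homeobox genes *Evx1* and *Evx2*, which border the 5′ ends of clusters a and d, had 0 counts in both libraries. The most abundant neighbors of cluster a were *Tax1bp1* (2223 and 1730 counts, log2 ratio 0.08) and *Snx10* (1306 and 872 counts, -0.14), and that of cluster c was *Atp5g2* (1206 and 984 counts, 0.15).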

How the data were processed

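RNA of sorted HSCs was amplified with a SMARTer low-input kit and sequenced from 1 WT library and 1 library labelled Ezh2 KO. The authors deposited raw read counts for each gene symbol and did not normalise them. The study's methods do not name these 2 libraries and were taken to apply to them. Per those methods, reads were aligned to mm10 with TopHat2 2.0.13 and Bowtie2 2.1.0, and StringTie was named for the counts. The submitters' processing notes also list edgeR and bedtools, without a version. The 5 closing entries of each file are named as in htseq-count output, which leaves the counting program uncertain. They held 56.1% of all entries in WT and 56.9% in the other library, and were kept out of all totals.

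Median-of-ratios size factors (DESeq2 1.42.0, R 4.3.3) of 1.17 for WT and 0.858 for the other library were used to normalise counts, and ratios are log2 of the normalised count plus 1, which understates the change of low genes. Intervals are exact 95% conditional binomial intervals without the added count. With 1 library per group neither edgeR nor DESeq2 was fitted for the main result, no p-value is given, and a gene was called past 2-fold at a mean of at least 1 CPM. RPKM were computed with exon lengths of protein-coding transcripts in GENCODE M21, and with the longest coding sequence as an alternative. Pseudocounts, scalings, filters, thresholds, thinning and assumed spreads were varied, with edgeR 4.0.16 for the last. Scripts used Python 3.11.15 with matplotlib 3.10.9, pandas 2.3.3, scipy 1.17.1 and numpy 2.4.6, and were tested on simulated data.

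The members and gene lists were chosen with earlier results of these data known. Every member above 3 counts in a library is given with values. Some genes that the rules select are not reported here. Of the lists of partners, regulators, non-coding genes and flanking genes, those past 2-fold and otherwise the 3 most abundant are named. Other genes named from these lists were chosen after their values were seen.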

Additional observations from a re-analysis of the deposited data

Results flagged for a closer look

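Reads with more than 1 alignment, which were given to no gene, made up 12.27% of all entries in the library labelled Ezh2 KO and 10.75% in WT. This was noted because it is a difference in entries that the Hox comparisons do not use. Entries of reads that fell on more than 1 gene, which would take up reads from overlapping Hox and antisense genes, were 0.5392% and 0.5325%, with overlapping 95% intervals.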

How the results depend on the processing

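No paired analysis was possible because there was 1 library in each group, and for the same reason none could be left out. Of 64 values recomputed for the main comparisons, 49 were classed as the same, 15 as moved and 0 reversed a call. Values classed as the same could still shift. The log2 ratio of cluster c went from 1.49 to 2.47 without its most abundant member. With total counts, 2 members in place of 3 were lower past 2-fold. Without a filter on low counts, 2 of 21 members with a count were higher past 2-fold (*Hoxc4* and *Hoxc5*), where 9.45% of all 14855 genes were, and 5 were lower, *Hoxb8* among them, where 7.39% of all genes were. With a minimum mean of 10 CPM 0 were lower (1.19% of all genes). At a threshold of 1.5-fold 1 member was higher (10.5% of all genes) and at 4-fold 1 was lower (0.922%). An edgeR exact test with an assumed coefficient of variation between libraries of 0.2 left 1 member lower (*Hoxb9*; 0.175% of all genes), and 0.4 left 0 (0.0159%). *Hoxa2* fell just short of 2-fold with total counts and had a log2 ratio of -0.72 with a pseudocount of 5. With coding lengths in place of exon lengths, the same 5 members were highest in each library but in another order. The log2 ratio of cluster a was -0.21 without *Hoxa10*. Divided along its length, a split chosen after seeing the data, cluster b had -1.94 for *Hoxb6* to *Hoxb13* and -0.28 for *Hoxb1* to *Hoxb5*. With all entries as the denominator, Hox genes took 0.0159% in WT and 0.0146% in the KO-labelled library. At least 10 counts were reached by 9 members in the KO-labelled library. Of the partner, regulator, non-coding and flanking lists together, 2 genes passed 2-fold with total counts and 3 without a filter. Over all genes, 5.17% were higher and 3.69% lower with total counts, and 9.45% and 7.39% without a filter.

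Depth limits the low members most. Several 5′ genes of cluster b rest on fewer than 10 counts in a library, and a member at 0 is bounded only by the floor of 3 counts. Spread between mice and library preparations was not measured, and the intervals do not hold it.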
